A study of Mus musculus with 28 samples.

Results

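The connexin genes of the epidermis and hair follicle Gja1, Gjb2, Gjb5 and Gjb6 were followed through 14 days of wound healing. They were taken by name as 4 rows of a table of raw read counts with 29068 genes, and all 4 were among the 18107 genes with enough reads to be tested. RNA was sequenced from the back skin of C57BL/6J mice, wild type for Mlkl (MLKL+/+) and 8 weeks old. From day 3 on, the skin was healing from a wound that a 6-mm punch had made through its full thickness. A wound sample was the wound area as a whole, so crust and bordering epidermis were sequenced together with the rest. There were 28 libraries, 4 at each of 7 time points labelled day 0, 3, 5, 7, 10, 12 and 14, all under natural wound healing with no other treatment. The earliest time point is called day 0 here, as in the sample labels, which make it the control, while the study numbers it day 1 and, in its figure legends, counts the day of the injury itself as day 1. The labels do not say whether the 4 libraries of a day came from separate mice, so p-values measure the spread between these libraries.

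Connexins are membrane proteins that assemble into hexameric half-channels. Half-channels of neighbouring cells dock into gap junctions, through which ions and small molecules pass, and undocked ones can open to the outside. Gja1 encodes Cx43, the most widespread connexin of skin, present in basal keratinocytes, hair follicles, fibroblasts and vessels. Gjb2 (Cx26) and Gjb6 (Cx30) are known from hair follicles and from hyperproliferative epidermis, and Gjb5 encodes Cx31.1, a connexin of differentiating rodent keratinocytes. In bulk tissue a change in the number of cells of a type and a change in RNA per cell cannot be told apart.

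The genes lie in 3 places of the GRCm38 (mm10) genome, by the GENCODE M21 annotation. Gja1 (ENSMUSG00000050953) spans chr10:56377330-56402513 on the plus strand. Gjb2 (ENSMUSG00000046352) at chr14:57098600-57104702 and Gjb6 (ENSMUSG00000040055) at chr14:57123303-57133611 are neighbours on the minus strand, 18600 bases apart. Gjb5 (ENSMUSG00000042357) at chr4:127354809-127358181 is also on the minus strand. The coding sequence of each of the 4 lies in 1 exon, and the encoded proteins have 382 residues for Gja1, 226 for Gjb2, 271 for Gjb5 and 261 for Gjb6.

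The 150 bases before the RefSeq transcription start of each gene (build GRCm38.p6, given 5′ to 3′ on the gene's strand) are shown because neighbouring Gjb2 and Gjb6 rose together while Gjb5 fell. Capitals mark a match, on either strand, to the TATA box letters TATAAA, the GC box letters GGGCGG or the AP-1 letters TGACTCA, which do not overlap one another here. The windows lie at chr10:56377150-56377299 for Gja1, chr14:57104703-57104852 for Gjb2, chr4:127358165-127358314 for Gjb5 and chr14:57133612-57133761 for Gjb6.
Gja1: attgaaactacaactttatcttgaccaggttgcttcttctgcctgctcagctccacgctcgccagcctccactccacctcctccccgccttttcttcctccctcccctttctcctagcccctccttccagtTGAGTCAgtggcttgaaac
Gjb2: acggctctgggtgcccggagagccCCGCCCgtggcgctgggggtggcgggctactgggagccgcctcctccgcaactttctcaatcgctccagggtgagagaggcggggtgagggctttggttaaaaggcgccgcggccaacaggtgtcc
Gjb6: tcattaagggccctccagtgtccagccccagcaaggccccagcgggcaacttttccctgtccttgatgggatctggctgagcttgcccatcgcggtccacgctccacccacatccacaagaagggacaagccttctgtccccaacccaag
Gjb5: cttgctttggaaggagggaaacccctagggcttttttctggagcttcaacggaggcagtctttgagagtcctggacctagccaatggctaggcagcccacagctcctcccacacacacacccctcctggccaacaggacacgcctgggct
In the Gja1 window, 1 AP-1 match was found on the opposite strand, 19 to 13 bases before the start. In the Gjb2 window, 1 GC box match was found, also on the opposite strand, 126 to 121 bases before the start. None of the 3 sets of letters was found in the windows of Gjb5 and Gjb6. Of 32851 promoter windows of the same length, 2.84% held the AP-1 letters, 28.6% the GC box and 7.57% the TATA box. The GC content was 69.3% for Gjb2, 60.7% for Gjb6, 58.7% for Gjb5 and 54.7% for Gja1, beside a median of 54% over all windows. A match is a description of the letters, and no binding was measured here.

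Between 36706513 and 40655764 reads were counted per library. The keratinocyte markers of the skin were detected in every library, with a summed level of 7 basal markers of 1771 to 3713 FPKM at day 0, 1611 to 2043 at day 3, 1447 to 1712 at day 7 and 2362 to 2885 at day 14, where FPKM is fragments scaled to the length of the gene and the total of the library. By the edgeR test described below, 5 of the 7 were lower on day 3 and 6 on day 7, with none higher. Without day 0 replicate 1, 2 were higher on day 3. Of all genes tested, 34.8% were lower on day 3 and 24.8% on day 7. Libraries of day 0 varied among themselves far more than later ones, with a biological coefficient of variation of 26.5% against 5.77% to 10.8%. The library labelled day 0 replicate 1 stood apart, with 1034 FPKM summed over 12 hair follicle genes (inner root sheath and hair shaft keratins and Tchh) against 148 to 315 in the other 3. The day 0 libraries also split in pairs, with 6 fibroblast markers at 5121 and 3048 FPKM in replicates 1 and 4 against 11799 and 11369 in replicates 2 and 3, and the 7 basal markers at 3187 and 3713 against 1771 and 1827. Calls that changed without replicate 1 are given beside the result, and changed values for some results only.

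The quasi-likelihood test of edgeR set every later day against day 0 in 1 fit of all 28 libraries, with p-values adjusted over all genes tested and a call at an adjusted p under 0.05. The 6 comparisons share the 4 day 0 libraries. An exact permutation test, two-sided, was run beside it for each of the 4 genes on log2 values, and its smallest p for 4 against 4 libraries is 0.0286. All 4 connexins differed among the 7 days in the joint test of edgeR, as did 89.5% of all genes tested. The statistic was F = 336 for Gja1 (adjusted p = 1.04e-21), 165 for Gjb6 (adjusted p = 2.57e-18), 85.1 for Gjb2 (adjusted p = 4.29e-15) and 54.3 for Gjb5 (adjusted p = 6.59e-13).

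Gja1 kept close to its day 0 level for 10 days and then rose steeply. In the 4 day 0 libraries, replicates 1 to 4, it stood at 107, 93.7, 86.8 and 82.3 FPKM, with a mean of 92.5 ± 10.8 (SD, n = 4). On day 3 its levels were 96.7, 91.0, 95.6 and 91.1 FPKM, inside the day 0 range. The log2 fold change was 0.07 (SE 0.07, adjusted p = 0.372 by edgeR), and without day 0 replicate 1 it became 0.20 and passed (adjusted p = 0.00831). On day 5 all 4 libraries lay below the lowest of day 0, at 75.7, 71.6, 72.9 and 64.3 FPKM. This was the one called decrease of Gja1, of -0.34 on the log2 scale (SE 0.07, adjusted p = 0.000176 by edgeR, exact p = 0.0286).

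On days 7 and 10 the Gja1 transcript overlapped day 0, with 1 library of day 7 just under the lowest of day 0. It measured 84.5, 93.5, 81.8 and 85 FPKM on day 7. It measured 94.9, 86.8, 83.9 and 85.9 FPKM on day 10. The log2 fold changes of -0.10 and -0.13 did not pass the test of edgeR (adjusted p = 0.225 and 0.132), although the latter passed without day 0 replicate 4, at -0.18 (adjusted p = 0.0369). Then came the rise, to 230, 262, 236 and 263 FPKM on day 12 and to 410, 385, 352 and 367 FPKM on day 14. The lowest library of these days lay far above the highest of the first 10. Against day 0, Gja1 rose 2.42-fold by day 12 (log2 1.28, SE 0.07, adjusted p = 1.36e-13) and 3.75-fold by day 14 (log2 1.91, SE 0.07, adjusted p = 1.7e-17), both by edgeR and both with an exact p of 0.0286.

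Gjb2 was higher than on day 0 on every later day, with an early peak, a trough on day 10 and a late climb above both. Day 0 was uneven, with 38.5 FPKM in replicate 1 and 14.2, 13.2 and 15.2 in the others. On day 3 the 4 libraries reached 93.8, 78.1, 86.4 and 83.9 FPKM. The rise by day 3 was 4.38-fold (log2 2.13, SE 0.21, adjusted p = 6.31e-10 by edgeR, exact p = 0.0286), and 6.50-fold without day 0 replicate 1 (log2 2.70). Levels were 61.3, 56.2, 59.1 and 62.3 FPKM on day 5 and 54.4, 69.4, 58.0 and 68.4 FPKM on day 7. On both days every library lay above every day 0 library, with log2 fold changes of 1.60 and 1.62 (adjusted p = 1.33e-07 and 1.69e-07 by edgeR), or 2.13 and 2.14 without that replicate.

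By day 10 Gjb2 had come down to 41.2, 38.7, 35.8 and 39.3 FPKM. This was the lowest wound level of the gene, and 1 of 4 libraries lay above all day 0 libraries in log2 CPM (counts scaled to the library total). The overlap depends on the scale. In FPKM, replicates 1, 2 and 4 of day 10 lay above the highest day 0 library, replicate 1 at 38.5. The change of 0.88 on the log2 scale (SE 0.20) passed edgeR's test (adjusted p = 0.00066) but not the exact permutation test (p = 0.114), and it was 1.40 without day 0 replicate 1. On day 12 it stood at 149, 184, 157 and 185 FPKM, and on day 14 at 365, 338, 323 and 306 FPKM. The lowest day 14 library was far above the highest library of day 3. Against day 0, Gjb2 rose 7.51-fold by day 12 (log2 2.91, adjusted p = 1.41e-11) and 15.0-fold by day 14 (log2 3.91, SE 0.22, adjusted p = 2.48e-14) by edgeR, and 10.9-fold and 22.8-fold without replicate 1.

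Gjb6 was the scarcest of the 4 on day 0 and was higher on every later day. It had 1.48, 1.13, 1.36 and 1.22 FPKM in the day 0 libraries, from 134 to 172 reads each. On day 3 it had 11.7, 9.63, 8.62 and 9.40 FPKM, so that the lowest wound library exceeded the highest day 0 library several times over. The rise was 7.87-fold (log2 2.98, SE 0.11, adjusted p = 2.03e-18 by edgeR, exact p = 0.0286). Day 5 levels were 7.78, 6.84, 7.80 and 7.72 FPKM. Those of day 7 were 5.61, 7.31, 5.88 and 8.17 FPKM, followed by 5.87, 5.11, 4.67 and 5.22 FPKM on day 10. Even on day 10 the gene stood 3.86-fold above day 0 (log2 1.95, adjusted p = 6.67e-14 by edgeR). It was again at 7.83, 8.06, 7.43 and 8.05 FPKM on day 12 and at 16.2, 15.3, 13.1 and 15.0 FPKM on day 14. The day 14 rise over day 0 was 10.5-fold (log2 3.39, SE 0.11, adjusted p = 1.18e-18 by edgeR). On each of the 6 later days all 4 libraries lay above all those of day 0, and leaving out any 1 library kept every call against day 0.

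Against day 0, Gjb5 went the other way from Gjb2 and Gjb6 up to day 10. Its day 0 levels of 17.3, 14.0, 15.2 and 16 FPKM fell to 4.96, 3.90, 5.55 and 4.51 FPKM on day 3. The fall was 3.17-fold (log2 -1.66, SE 0.12, adjusted p = 2.45e-12 by edgeR, exact p = 0.0286). It recovered in part to 6.27, 6.32, 7.22 and 9.54 FPKM on day 5 and 7.25, 8.32, 8.71 and 8.86 FPKM on day 7, and stood at 5.78, 5.84, 5.61 and 7.16 FPKM on day 10. All 16 libraries of days 3 to 10 lay below the lowest day 0 library, with log2 fold changes of -1.05, -0.92 and -1.41 on days 5, 7 and 10 (adjusted p = 1.88e-08, 2.81e-07 and 1.96e-10 by edgeR). On day 12 the levels were 14.6, 14.9, 14.3 and 14.5 FPKM, and on day 14 they were 14.5, 13.6, 15.2 and 12.2 FPKM, both overlapping day 0 in FPKM.

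The late Gjb5 values were close to day 0. The log2 fold change on day 12 was -0.24 (SE 0.12, adjusted p = 0.0919 by edgeR), and on the log2 CPM scale all 4 libraries lay below day 0 (exact permutation p = 0.0286). On day 14 it was -0.29 (SE 0.12) with an adjusted p of 0.0317 by edgeR, an exact permutation p of 0.0571 and no call in 8 of the other settings tried, where it lay between -0.26 and -0.16. It was also lost without day 0 replicate 1, 3 or 4 or day 14 replicate 2 or 4, although the difference stayed below 0 in every setting run.

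**Figure D1:**
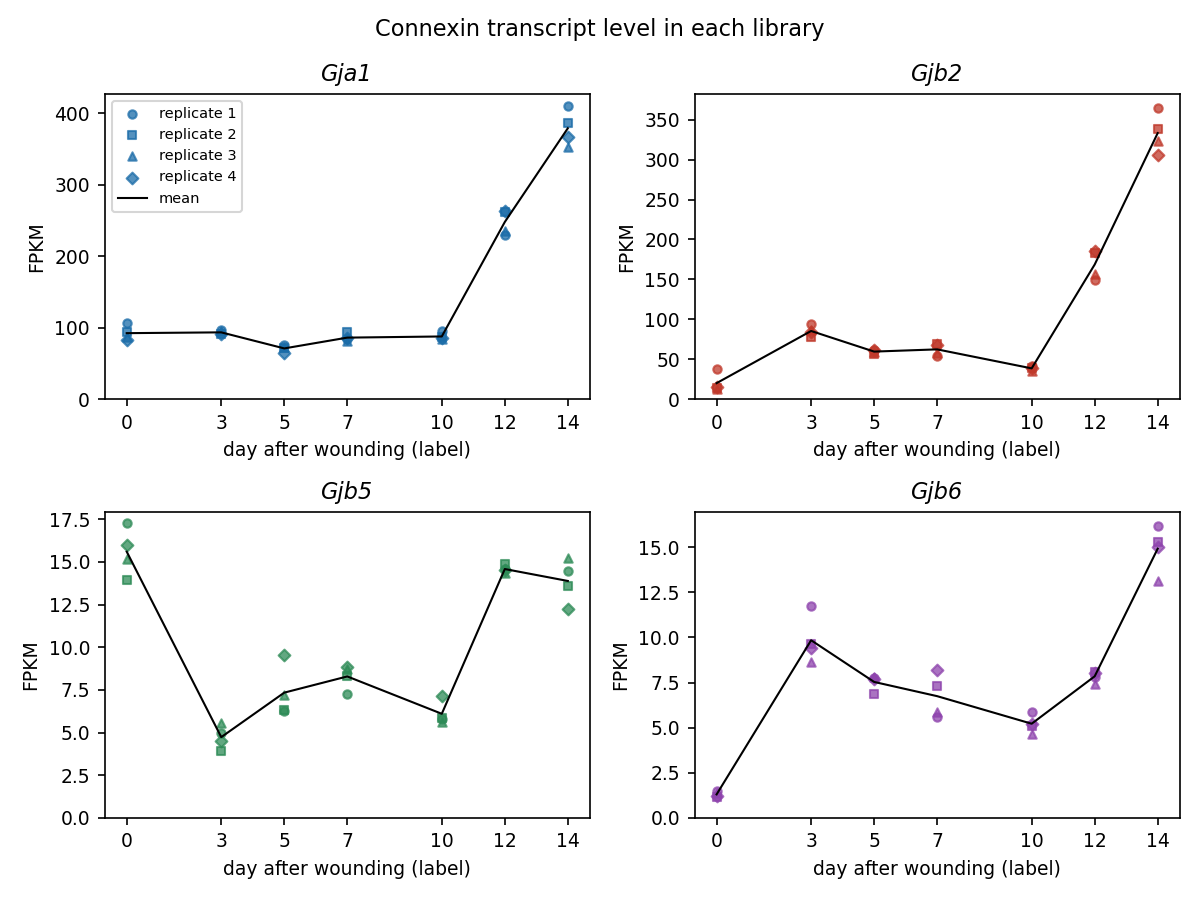
FPKM (vertical axis, from 0, a separate scale for each gene) of Gja1, Gjb2, Gjb5 and Gjb6 in each of 28 libraries against the labelled day, with a marker for each replicate number and a line through the day means. Gja1 and Gjb2 end at means of 379 and 333 FPKM on day 14, Gjb6 jumps from 1.30 to 9.84 FPKM between day 0 and day 3, and Gjb5 drops from 15.6 to 4.73 FPKM in the same interval.

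Read against all genes, the calls of the 4 connexins were as follows. On day 3, 2 were higher (3 without day 0 replicate 1) and 1 lower, where 31.8% of all genes tested were called higher and 34.8% lower. On day 5, 2 were higher and 2 lower, against 29.0% and 30.6% of all genes. On day 7, with 25.6% of genes higher and 24.8% lower, and on day 10, with 23.5% higher and 26.9% lower, 2 of the 4 were higher and 1 lower. On day 12, 3 were higher and none lower, with 21.7% and 25.6% of all genes called. On day 14, 3 were higher and 1 lower (none lower without day 0 replicate 1), with 28.2% and 34.5%. A call was thus common among all genes on each of these days.

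Under a stricter rule, an absolute log2 fold change over 1.5 with an unadjusted p under 0.05, fewer genes passed. On day 3, Gjb2, Gjb5 and Gjb6 met it, as did 18.9% of all genes. Gjb2 and Gjb6 met it on day 5, on day 7 and on day 12, as did 13.9%, 9.40% and 7.39% of all genes. On day 10, Gjb6 alone of the 4 met it, with 9.47% of all genes. On day 14, Gja1, Gjb2 and Gjb6 met it, with 14.0%. Gjb6 passed this rule on all 6 days and Gjb2 on 5.

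**Figure D2:**
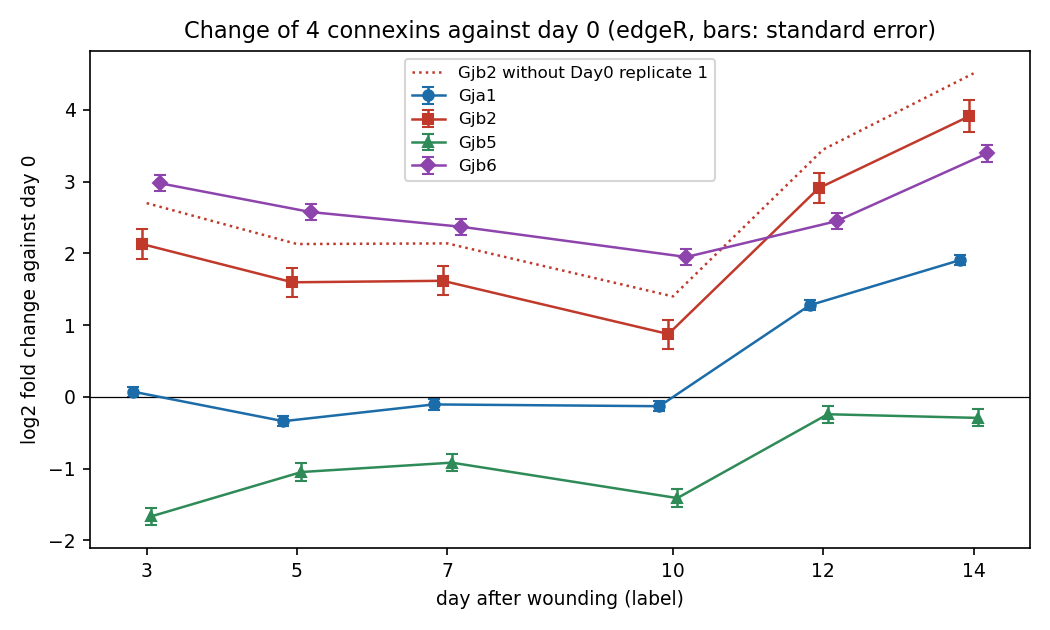
Log2 fold change against day 0 (vertical axis) by labelled day for the 4 connexins, with bars for the standard error of the edgeR fit. The dotted line gives Gjb2 without the library labelled day 0 replicate 1, 2.70 on day 3 and 4.51 on day 14 against 2.13 and 3.91 with it.

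Neighbouring time points, which do not all share libraries, gave the pace of these changes. Between days 10 and 12 all 4 rose, when 39.4% of all genes changed in either direction. The steps, on the log2 scale, were 2.03 for Gjb2 (adjusted p = 6.05e-09), 1.41 for Gja1 (adjusted p = 1.82e-14), 1.17 for Gjb5 (adjusted p = 9.37e-09) and 0.50 for Gjb6 (adjusted p = 0.00024), all by edgeR. From day 12 to day 14, when 45.2% of all genes changed, Gjb2 rose by a further 1.00 (adjusted p = 0.000179), Gjb6 by 0.94 (adjusted p = 1.83e-08) and Gja1 by 0.63 (adjusted p = 5.67e-08), while Gjb5 differed by -0.05 (adjusted p = 0.749). Gjb5 had reached its late level by day 12, and for Gjb6 the step after day 12 was the larger one.

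Between days 3 and 10 the steps went in both directions. From day 3 to day 5, with 24.3% of all genes changed, Gja1 fell by 0.41 and Gjb6 by 0.40 on the log2 scale (adjusted p = 7.65e-05 and 0.00375 by edgeR), and Gjb5 rose by 0.62 (adjusted p = 0.000437). Gjb2 differed by -0.53, just short of the threshold (adjusted p = 0.0503 by edgeR), with an exact permutation p of 0.0286, and passed without day 3 replicate 2 (-0.61, adjusted p = 0.0427). From day 5 to day 7, with 28.5% of genes changed, Gja1 alone of the 4 was called (0.23, adjusted p = 0.0135 by edgeR), a call lost without day 5 replicate 4 or day 7 replicate 2, at 0.20 and 0.19. Over these days Gjb6 differed by -0.20 (adjusted p = 0.134 by edgeR), and by -0.32 without day 7 replicate 4 (adjusted p = 0.0221). From day 7 to day 10, with 32.3% changed, Gjb2 fell by 0.74, Gjb5 by 0.49 and Gjb6 by 0.42 (adjusted p = 0.00508, 0.00243 and 0.002 by edgeR), and Gja1 differed by -0.02 (adjusted p = 0.832).

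Ordered by mean level, the days ran 14, 12, 3, 0, 10, 7 and 5 for Gja1, and the ranges of days 3, 0, 10 and 7 overlapped from one to the next. For Gjb2 the order was 14, 12, 3, 7, 5, 10 and 0, with overlap between days 7 and 5 and, through replicate 1, between days 10 and 0. For Gjb5 it was 0, 12, 14, 7, 5, 10 and 3, with overlap among the first 3 days in that order and along days 7, 5 and 10. For Gjb6 it was 14, 3, 12, 5, 7, 10 and 0, with overlap from one to the next along days 12, 5, 7 and 10 and none between days 10 and 0. Day 14 was the highest for 3 of the 4 genes and day 0 the highest for Gjb5.

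FPKM values are scaled to gene length, so that levels of the 4 genes may be set beside each other. On day 0, Gja1 made up 71.9% ± 4.83 (SD, n = 4) of their summed level, Gjb2 14.9% ± 5.75, Gjb5 12.2% ± 1.57 and Gjb6 1.01% ± 0.13. On day 3 the shares were 48.4% ± 1.31 for Gja1, 44.1% ± 1.04 for Gjb2, 2.44% ± 0.29 for Gjb5 and 5.08% ± 0.53 for Gjb6. Gjb2 transcript was then nearly as abundant as that of Gja1, and the ranks of Gjb5 and Gjb6 were exchanged. On day 10 Gja1 again held 63.7% ± 0.94 and Gjb2 28.1% ± 0.47. On day 14 the shares were 51.1% ± 0.98 for Gja1, 45.0% ± 0.94 for Gjb2, 1.88% ± 0.19 for Gjb5 and 2.01% ± 0.11 for Gjb6.

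Ratios of 2 of the genes within a library do not depend on how libraries are scaled. The 6 pairs were compared with day 0 on 6 days, 36 exact two-sided permutation tests with no adjustment, and 32 of them reached the smallest possible p of 0.0286. These tests are not independent, since the pairs are made of the same 4 genes and all share the day 0 libraries. The share for pairs of other genes was not computed, so the count does not say that these pairs were unusual. The Gjb2 to Gja1 ratio was 0.198 on day 0 (geometric mean, range 0.152 to 0.359) and 0.912 by day 3, then 0.441 by day 10 and 0.879 by day 14. It was above all day 0 libraries on all 6 later days. The Gjb6 to Gjb5 ratio was 0.0831 on day 0 and 2.09 on day 3, a change of 25.1-fold, then 0.538 on day 12 and 1.08 on day 14. The Gjb6 to Gjb2 ratio, that of the neighbours, was the one with days that did not pass, with log2 differences from day 0 of 0.69 on day 3 and 0.59 on day 7 (both exact p = 0.0571), 0.83 on day 5 and 0.92 on day 10 (both exact p = 0.0286), and -0.61 on day 12 and -0.67 on day 14 (both exact p = 0.143). On day 0 its log2 value ran from -4.70, in the library with high Gjb2, to -3.28, and without that library the differences were 0.39, 0.30, 0.53, 0.62, -0.90 and -0.96 in the same order, where 3 against 4 libraries cannot go under an exact p of 0.0571.

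The basal keratins Krt5 and Krt14 were used to set each connexin against the epithelium in the same library, in 24 further exact permutation tests without adjustment. The 2 keratins did not move alike. Without day 0 replicate 1, the day 3 change was -0.59 for Krt5 and 0.59 for Krt14 on the log2 scale (adjusted p = 0.0023 and 0.00762 by edgeR). Relative to the geometric mean of the pair, Gjb2 was higher on all 6 later days, by 2.38 on day 3, 0.90 on day 10 and 3.93 on day 14 on the log2 scale, each with an exact p of 0.0286. Gjb6 was likewise higher on all 6, by 3.07, 1.82 and 3.26 on those days. Gja1 was higher on day 12, by 1.61, and on day 14, by 1.77 (both exact p = 0.0286), and overlapped day 0 on the other 4 days. Its day 0 ratios lay at -3.44 and -3.99 in replicates 1 and 4 and at -2.55 and -2.70 in replicates 2 and 3. Gjb5 was lower on day 3, by -1.58, and on day 10, by -1.55 (both exact p = 0.0286), and its ratio overlapped day 0 on days 5, 7, 12 and 14. With 7 basal markers in place of the 2 keratins, Gja1 was also higher on day 3 (1.01) and day 7 (0.88), its day 5 difference moved from -0.02 to 0.64, and the day 3 difference of Gjb5 was -0.75 and no longer passed.

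**Figure D3:**
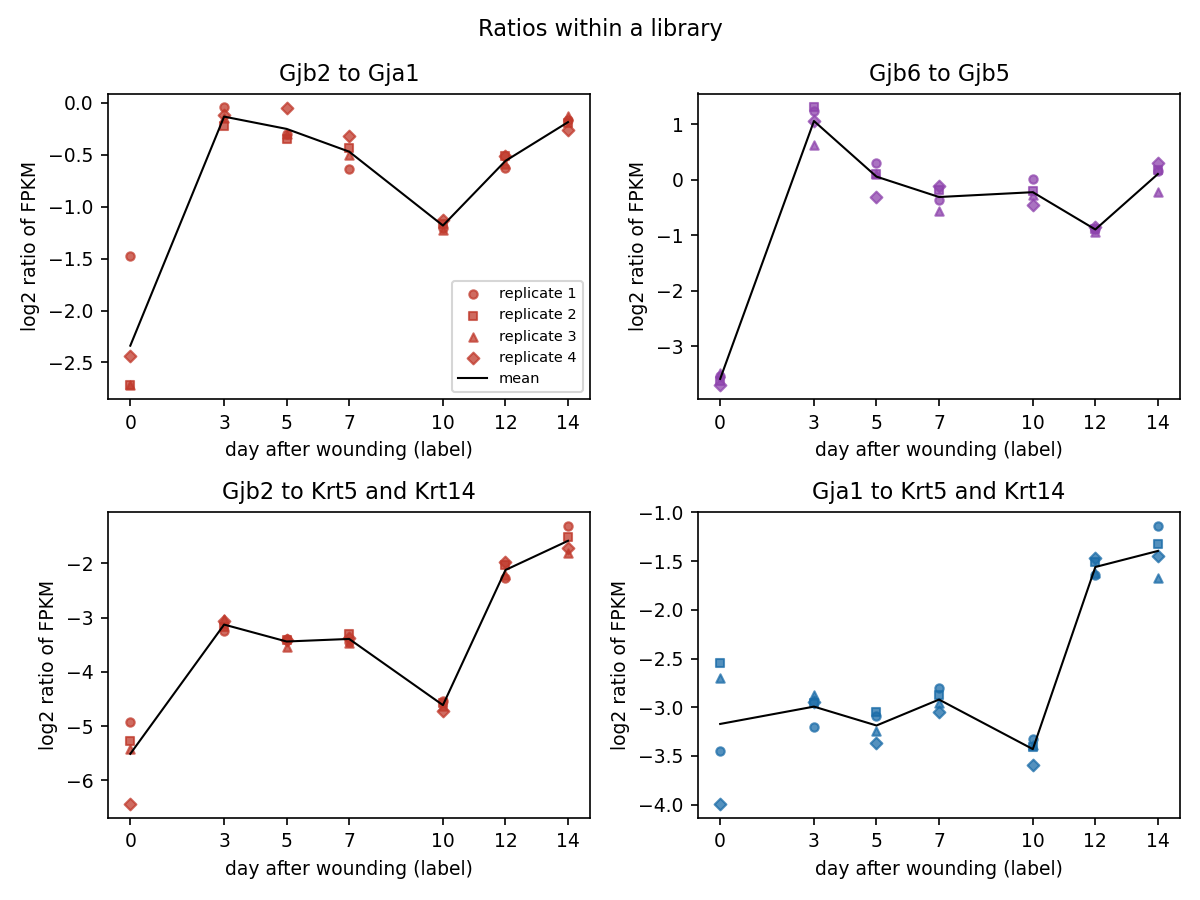
Log2 ratio of FPKM within each library (vertical axis) by labelled day, for Gjb2 to Gja1, Gjb6 to Gjb5, and Gjb2 and Gja1 to the geometric mean of Krt5 and Krt14, with a marker for each replicate number and a line through the day means. The Gjb2 to Gja1 ratio goes from a mean of -2.34 on day 0 to -0.13 on day 3, and Gja1 leaves its day 0 range relative to the keratins on days 12 and 14.

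Marker genes of the epithelium moved on the same days, and their part in the connexin changes was not tested. The summed level of 12 hair follicle genes was 2.76 to 5.84 FPKM on day 3 and 5.41 to 8.43 on day 5, far under the 148 to 1034 of day 0, with 12 of 12 genes lower on both days by edgeR. Gjb2 and Gjb6 were high on those days. On days 12 and 14 all 12 were higher, with sums of 2668 to 3549 and 2905 to 3751 FPKM, beside the rises of Gja1, Gjb2 and Gjb6. On day 7 the sum was 593 to 831 FPKM, with 5 of 12 called higher (12 of 12 without day 0 replicate 1), and on day 10 it was 171 to 196 FPKM, with 8 of 12 lower (7 lower and 4 higher without that replicate). No hair follicle gene was at 0 in all libraries of any day. Fibroblasts also make Gja1, and the fibroblast markers summed to 3048 to 11799 FPKM at day 0, 10486 to 11492 at day 10, 8890 to 10017 by day 12 and 3550 to 3995 by day 14. Their part was not tested either. Markers of other cells moved as well, with 5 neutrophil genes at 16.5 to 63.6 FPKM on day 0 and 7622 to 9733 on day 3, 5 macrophage genes at 412 to 552 and 861 to 908, and 5 skeletal muscle genes at 8212 to 13341 and 1810 to 2334. On day 14, 4 melanocyte genes summed to 255 to 295 FPKM, from 10.4 to 32.8 at the start and 119 to 150 on day 12, and the macrophage genes to 162 to 186. The part of these cells in the connexin values was not tested.

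The 5 wound edge genes, keratins and a cornified envelope gene that activated keratinocytes make, summed to 277 to 408 FPKM at the start (day 0) and 1345 to 1666 at day 3. Their sum was 761 to 886 FPKM at day 10 and 1012 to 1153 at day 14. On day 3, 4 of 5 were higher (5 of 5 without day 0 replicate 1), with Krt6b at 302 and Krt16 at 335 FPKM. On day 14 Krt17, a keratin of both the wound edge and the follicle, accounted for most of the sum, at 964 ± 53.5 FPKM, with Krt6b and Krt16 at 4.43 and 17.6 FPKM. The 7 suprabasal markers summed to 1889 to 2157 FPKM at the start, 804 to 1099 at day 3 and 644 to 820 at day 14, with 7 of 7 lower on day 3 (6 without day 0 replicate 1), when Gjb5 was lowest, and 6 of 7 lower on day 14, when Gjb5 was near its day 0 level.

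**Figure D4:**
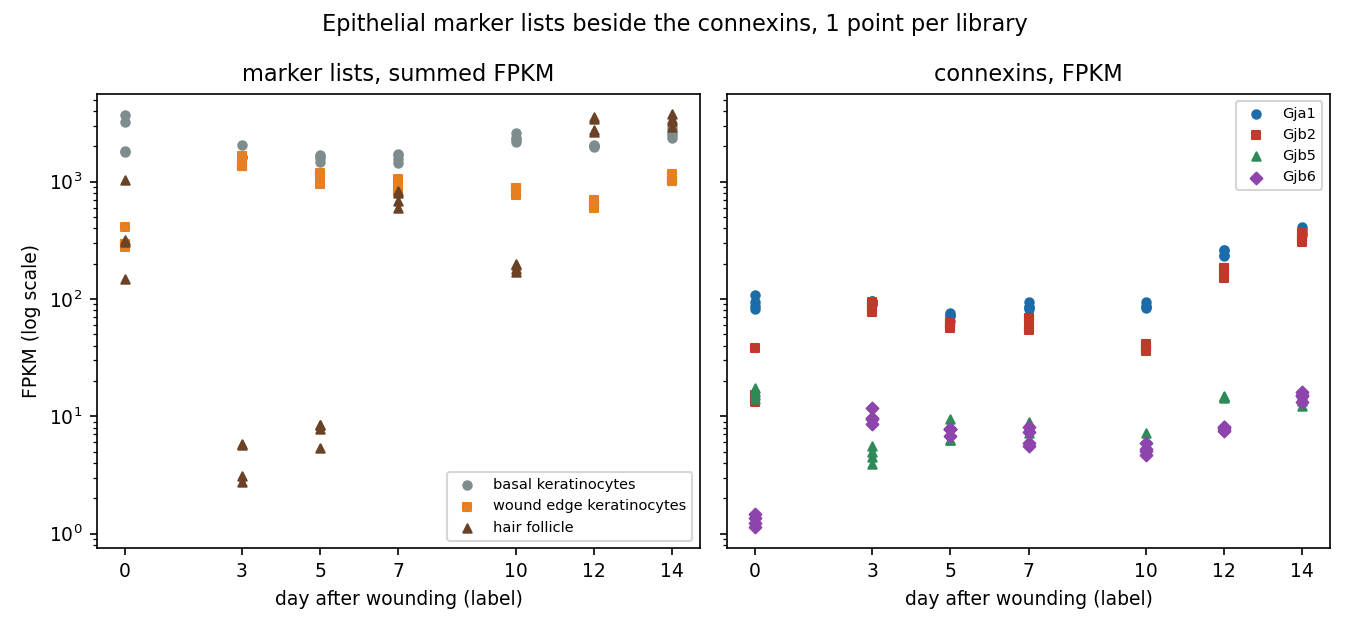
Left, summed FPKM of 7 basal, 5 wound edge and 12 hair follicle marker genes, and right, FPKM of the 4 connexins, both on a log axis by labelled day with 1 point per library. The hair follicle sums span from under 10 FPKM on days 3 and 5 to at least 2668 on days 12 and 14, while Gjb2 and Gjb6 are above their day 0 means throughout.

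The genes whose log2 CPM ran most like each connexin over the 28 libraries were found among 14683 genes, with no test, since all the points share the libraries and the day structure. For Gja1 they were the zinc exporter Slc30a1 (Pearson r = 0.981), Krt17 (0.974), the cationic amino acid transporter Slc7a1 (0.973), the glutathione synthesis enzyme subunit Gclc (0.973) and the peptidase Lap3 (0.971). For Gjb2 they were the transglutaminase Tgm3 (0.973), which cross-links hair and epidermal proteins, Slc25a37 (0.966), Hspa14 (0.961), the amino acid transporter Slc7a8 (0.959) and Prep (0.953). Tgm3 stood at 6.12 FPKM on day 3 and 14.1 on day 14. For Gjb5 they included Clic3 (0.954), Zfp706 (0.949), Tuft1 (0.945) and the ephrin Efna3 (0.939), and Efna3 went from 14.3 to 2.89 FPKM by day 3 and back to 13.1 on day 14. For Gjb6 they were the adhesion protein Nectin2 (0.953), Ltbp3 (0.943), the mitotic spindle protein Hmmr (0.933), the nuclear lamina protein Lmnb1 (0.931) and Marcksl1 (0.928).

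Among the 4 connexins themselves, Pearson r over 28 libraries was 0.85 for Gjb2 with Gjb6, 0.81 for Gja1 with Gjb2, 0.53 for Gja1 with Gjb5, 0.44 for Gja1 with Gjb6, 0.11 for Gjb2 with Gjb5 and -0.37 for Gjb5 with Gjb6. Without the 4 day 0 libraries, r was 0.94 for Gja1 with Gjb2, 0.81 for Gjb2 with Gjb6 and 0.77 for Gja1 with Gjb5. It was 0.72 for Gjb2 with Gjb5, 0.60 for Gja1 with Gjb6 and 0.29 for Gjb5 with Gjb6. These too are descriptions of the same libraries.

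The 4 genes carried most of the connexin message. Over the 19 connexin genes in the table the summed level was 182 ± 25.2 FPKM at the start, on day 0 (SD, n = 4), and 224 ± 11.2 by day 3. It was 181 ± 3.49 FPKM on day 5 and 187 ± 7.46 on day 10, then 500 ± 36.1 by day 12 and 803 ± 48.7 by day 14. The 4 made up 70.9% of the day 0 sum, 86.4% of the day 3 sum, 73.8% of the day 10 sum and 92.2% of the day 14 sum. Of the 15 other connexins, 10 had enough reads for the test. On day 3, 2 of these were higher (3 without day 0 replicate 1) and 6 lower, with a median log2 fold change of -1.35 against -0.03 over all genes, and on day 5, 3 were higher and 6 lower (4 lower without day 0 replicate 1). On day 14, 1 was higher and 4 lower, with a median of 0.02 against -0.06 over all genes, and without that replicate 2 were higher and 2 lower.

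On chromosome 14, Gja3, a connexin known from the lens, lies 40499 bases from Gjb2. It had 8 to 57 reads per library on day 0, at most 1 on day 3 and none on day 5, at least 7.42-fold lower than day 0 against a floor of 3 reads per library (3.56-fold without day 0 replicate 1). By day 14 Gja3 was at 3.22 FPKM, up 3.91 on the log2 scale (adjusted p = 2.01e-09 by edgeR), or 5.05 without that replicate.

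Several other connexins with at least 1 FPKM on some day are known from vessels or glia. Gja4, of vessels, rose from 5.09 FPKM to 7.73 by day 3 (log2 0.66) and 11.3 by day 10 (log2 1.10). Gja5, of arterial endothelium, rose from 2.16 to 5.28 FPKM by day 3 (log2 1.35, adjusted p = 5.78e-07 by edgeR) and was at 1.66 on day 14 (log2 -0.50, adjusted p = 0.0285), a call lost without day 0 replicate 1 (-0.17, adjusted p = 0.419). Gjc1 (Cx45), of vascular and other smooth muscle, went from 2.79 FPKM to 6.94 on day 10 (log2 1.26). Gjc3, of myelinating cells, fell from 1.61 to 0.19 FPKM by day 3 (log2 -2.99, adjusted p = 3.96e-14) and was still lower on day 14, at 0.76 (log2 -1.20). The summed level of 6 endothelial markers was 118 to 160 FPKM at day 0, 195 to 208 at day 3 and 104 to 117 at day 14, and that of 3 Schwann cell markers was 142 to 272, 30.8 to 33.7 and 54.1 to 69.0 FPKM on those days. Their part in these values was not tested.

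**Figure D5:**
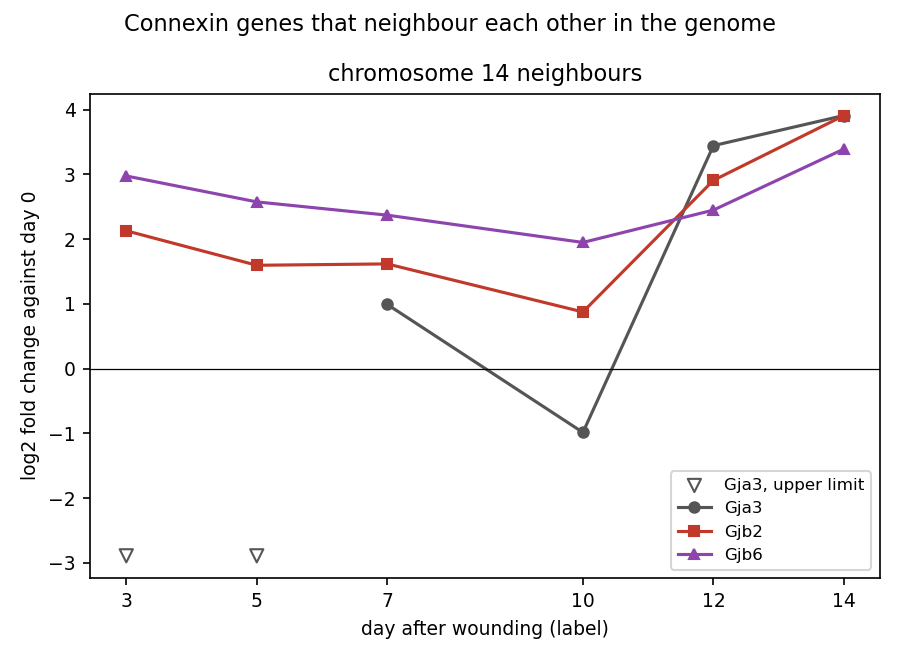
Log2 fold change against day 0 (vertical axis, edgeR) by labelled day for Gja3, Gjb2 and Gjb6, which neighbour each other on chromosome 14. Open triangles for Gja3 on days 3 and 5 are upper limits from a floor of 3 reads per library, at 7.42-fold lower, while on day 14 Gja3 stands at 3.91, Gjb2 at 3.91 and Gjb6 at 3.39, or at 5.05, 4.51 and 3.54 without day 0 replicate 1.

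Pannexins form channels of related shape but do not make gap junctions in the usual sense. Panx1 rose from 6.86 to 13.2 FPKM by day 14 (log2 0.82, adjusted p = 4.42e-06 by edgeR). Panx3, also made by keratinocytes, fell from 9.10 to 1.05 FPKM by day 3 (log2 -3.05, adjusted p = 7.25e-14) and stood at 9.58 on day 10 (log2 0.02). It was lower again at 6.80 FPKM on day 12 (log2 -0.56, adjusted p = 0.00697) and 6.90 on day 14 (log2 -0.52, adjusted p = 0.00834). Of all genes tested, 31.8% were higher and 34.8% lower on day 3, and 28.2% and 34.5% on day 14. Among 10 genes for proteins that bind or traffic connexins or share their junctions, 1 was higher and 4 lower on day 3, from drebrin (Dbn1, log2 0.27, adjusted p = 0.00159) to E-cadherin (Cdh1, log2 -1.05, adjusted p = 2.64e-13). On day 14, 3 were higher and 2 lower (4 and 1 without day 0 replicate 1), from Ccn3, a matricellular protein that binds Cx43 (log2 1.57, adjusted p = 1.2e-09), to consortin (Cnst, log2 -0.44, adjusted p = 8.87e-06), which sorts connexins to the membrane.

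Most genes of the other keratinocyte junctions were lower on day 3, as were Gjb5 and 34.8% of all genes tested. Of 13 desmosome genes, 2 were higher and 9 lower on that day, with a median log2 fold change of -0.73, from Dsg3 at 0.55 to Dsg2 at -2.55. On day 10 none was higher and 11 were lower, on day 12, 1 was higher and none lower (3 and 1 without day 0 replicate 1), and on day 14, 3 were higher and 6 lower (5 and 3 without it), from Pkp3 at 0.69 to Dsc1 at -1.25. Of 8 tight junction genes, 1 was higher and 7 lower on day 3, with a median of -1.77, from F11r at 0.44 to Cldn8 at -3.63. On day 14, 4 were higher and 3 lower (2 lower without day 0 replicate 1), from Cldn7 at 1.43 to Cgn at -1.64. Cldn7 was scarce throughout, at 0.69 FPKM on day 14.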

How the data were processed

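RNA was extracted with TRIzol from wound sites at 7 time points and sequenced from libraries of the VAHTS Universal V6 kit. Per gene, the authors deposited raw read counts for 29068 gene symbols in 28 libraries, and the submitters' processing notes name fastp, R 3.2.0 and build mm10. The aligner, counting tool, annotation and strandedness are not given in the sources used here, so that overlapping genes, and connexins with similar coding sequence, could share reads. The authors also deposited FPKM values, each the count divided by the library total and a constant gene length. Groups and replicate numbers came from the sample labels.

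Tests on the counts were run with edgeR 4.0.16 in R 4.3.3 (TMM, filterByExpr on the 7 days, estimateDisp, glmQLFit, glmQLFTest, two-sided) in 1 fit without covariates. The 18107 genes that passed the filter shared 1 Benjamini-Hochberg adjustment. The study's criteria (absolute log2 fold change over 1.5, P under 0.05) were set beside it. Exact permutation tests used log2 CPM (TMM-scaled counts) with a prior count of 2, or log2 ratios of FPKM. Likeness used genes with a mean of at least 1 CPM. Fold changes against groups at or under 3 counts were bounds. A count of 0 allows up to 3 counts, for counting error only. Scripts were tested on simulated counts. The genes, lists and rules were chosen with earlier results of these data known. Named genes were the 4 connexins, other connexins with at least 1 FPKM on any day, both tested pannexins, the highest and lowest called gene of the other lists on days 3 and 14, and the 5 most alike genes per connexin. Some genes that this rule names are not reported here. Krt6b, Krt16 and Krt17 were named after their values were seen. Promoters and gene positions came from RefSeq GRCm38.p6 and GENCODE M21. No 2 libraries agreed within sampling noise. Libraries with the same number did not deviate together.

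Alternatives were other normalizations and filters, DESeq2 1.42.0, edgeR on the 8 libraries of a comparison, limma 3.58.1 on log2(FPKM + 1) and log2(FPKM + 0.1), a replicate block, other reference markers, and each library left out in turn. Counts of the gene lists, and their genes, without day 0 replicate 1 were added after seeing the data.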

Additional observations from a re-analysis of the deposited data

Results flagged for a closer look

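Within a day, 6 of 28 gene and day groups held 1 library whose gap to its nearest neighbour was large for the range of the 4, by Dixon's criterion, while chance gives about 1 in 20, or 1.4 of 28. Values are log2 CPM. Gjb2 in day 0 replicate 1 was 6.58, against 5.02 to 5.22 in the other 3 libraries. Gja1 was 8.27 in day 7 replicate 2, against 8.08 to 8.11, and 8.21 in day 10 replicate 1, against 8.08 to 8.09. Gjb5 in day 10 replicate 4 was 3.59, against 3.27 to 3.29. Gjb6 was 4.42 in day 5 replicate 2, against 4.61 to 4.62, and 4.35 in day 12 replicate 3, against 4.46 to 4.47. The first of these gaps alone exceeds 1 on the log2 scale, and values without that library stand in the report.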

How the results depend on the processing

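Of 264 repeats of the connexin results against day 0 under other settings, 255 kept direction and side of the threshold, and 59 of 60 did between neighbouring days. The exceptions against day 0 were Gjb5. On day 14 its -0.29 lost its call with DESeq2 size factors (-0.26, adjusted p = 0.0576), no filter (-0.26, 0.077), upper quartile (-0.24, 0.0731) or no composition normalization (-0.17, 0.198), limma on log2(FPKM + 1) (-0.16, 0.183), with a minimum mean FPKM (-0.16, 0.165) or on log2(FPKM + 0.1) (-0.17, 0.204), and edgeR on 8 libraries (-0.22, 0.0852). On day 12, edgeR on 8 libraries called it (-0.24, 0.023). With the replicate number as a block, which did not pair libraries (84 same-number correlations from -0.08 to 0.18, with 8 of 28 libraries closest to their own number), Gjb2 fell from day 3 to day 5 (-0.53, adjusted p = 0.0463), and the block changed no other call. The criteria with a fold limit called 3420, 2520, 1702, 1715, 1339 and 2531 genes on days 3 to 14, against 12064, 10779, 9130, 9129, 8557 and 11352. With 7 basal markers as reference, the Gja1 ratio passed on day 3 (1.01) and day 7 (0.88), turned to 0.64 on day 5, and the Gjb5 ratio no longer passed on day 3 (-0.75).

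With 1 library left out in turn, Gja1 on day 3 ranged from 0.044 to 0.20, Gjb5 on day 14 ranged from -0.36 to -0.16, Gja1 on day 10 ranged from -0.18 to -0.044, Gjb2 on day 5 against day 3 ranged from -0.61 to -0.50, Gja1 on day 7 against day 5 ranged from 0.19 to 0.27, Gjb6 on day 7 against day 5 ranged from -0.32 to -0.14. Without composition normalization the median of all genes shifted by 0.14 on day 12 and 0.13 on day 14 (log2). Ratios with 3 libraries against 4 cannot go under an exact p of 0.0571 and were compared by value only. Xist as a covariate was not run, since it had at most 13 counts per library. The paper states that male and female mice were used, and the sex of the animals behind each library was not tested here. The cause of these changes was not tested. With 4 libraries a day and an uneven day 0, leaving out 1 library can end the call of a small difference such as that of Gjb5 on day 14, which kept its direction.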
